A study of Mus musculus with 4 samples.

Results

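The genes of DNA replication and nucleotide supply formed a set of 51 listed symbols, all 51 with entries among 12967 gene symbols measured. They were chosen by name, for roles in origin licensing, helicase loading and activation, DNA synthesis, Okazaki fragment processing, nucleotide supply, fork protection and the copying of chromatin and DNA methylation. The choice was made with earlier results of these data known. Dbf4, the activating partner of the Cdc7 kinase, was left out because it lies in a run of low genes on chromosome 5. The 51 genes were sorted into 10 role groups, and 50 of them averaged 5 CPM or more across the 4 libraries. CPM is a gene's read count scaled to the total of its library. These 50 were set beside all 10283 genes that reached that level. The gene that did not was Dna2.

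The libraries came from RNA immunoprecipitation of 4T1 cells, a mouse mammary carcinoma line, grown in puromycin. One line (shSCR) carried a stable control shRNA, and the other (shCerS4) a stable shRNA that targets CerS4, a ceramide synthase of sphingolipid synthesis. Each line gave 1 library of RNA precipitated with IgG, the control, and 1 of RNA precipitated with an antibody to Caprin-1, an RNA-binding protein, so there were 4 groups of 1 library. The study asked how altered lipid metabolism changes the mRNAs held by Caprin-1. The labels do not say whether the lines were clones or pools, or how many shRNA sequences were used. Cers4 has no entry in the table used here, so the knockdown could not be checked.

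The shSCR libraries held an estimated 19.8 M (IgG) and 27 M (Caprin-1) reads, and the shCerS4 libraries 19.7 M (IgG) and 24.7 M (Caprin-1). Where 4 CPM values follow each other they are in that order, and pairs of shCerS4 over shSCR ratios, all on the log2 scale, give Caprin-1 first and IgG second. With 1 library per group no difference has a replicate check and no p-value was computed. Brackets hold 95% counting intervals of a log2 ratio, which cover counting error between these libraries only. A gene was called, or past 2-fold, when it differed by 2-fold or more with 0 outside the interval. The 7 epithelial keratin and junction markers of the line all had entries, with sums of 5686 and 9714 CPM in shSCR and 4025 and 5994 CPM in shCerS4 cells. Of these Krt8 was lower past 2-fold in shCerS4 cells in both precipitates, at −1.30 and −1.12, and Cdh1 with Caprin-1 (1.06) and Cldn7 with IgG (1.09) were higher. Their part in the results was not tested. Of 14 fibroblast, endothelial and leukocyte markers 5 had entries, with sums of 67.5 and 24.4 CPM in shSCR and 43.7 and 20.1 CPM in shCerS4 cells, and most of that was Pdgfra; Ptprc, Pecam1 and Cdh5 were among those without an entry.

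Before a cell divides, each origin of replication is licensed in G1 phase when ORC, Cdc6 and Cdt1 load the ring-shaped MCM helicase onto DNA. In S phase Cdc7 and cyclin-dependent kinases, Mcm10, Cdc45 and the GINS complex turn that ring into a moving helicase. Polymerase alpha with primase starts each strand, the clamp loader RFC places the PCNA clamp, polymerases delta and epsilon extend, and Fen1 and Lig1 finish the lagging strand. Many of these genes are transcribed as cells enter S phase under E2F transcription factors, and ribonucleotide reductase, thymidylate synthase and thymidine kinase supply the DNA precursors.

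The E2F connection made the promoters of these genes worth showing beside their values. RefSeq promoter sequences (GRCm38.p6, from 250 bases before to 50 after each start) matched 43 of the 51 genes, with 53 promoters in all. An E2F site was taken as any of TTTGGCGC, TTTGCCGC, TTTCGCGC or TTTCCCGC on either strand. It occurred in 17 of 53 promoters of the set (32.1%) against 2.26% of all 32851 promoters in the reference and 4.32% of those of compared genes. By gene, 17 of 43 (39.5%) held a site against 5.27% of compared genes. A shorter core lacks the first T, so every such site contains it. It occurred in 60.4% of the set's promoters, against 9.57% of all and 17.7% of those of compared genes. The CCAAT box (CCAAT) occurred in 56.6%, against 37.4% of all and 37.8% of those of compared genes. The CHR element (TTTGAA) occurred in 15.1%, against 17.9% of all and 11.6% of those of compared genes. These matches are descriptions of letters, not of binding.

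The promoters below are shown because Cdc6, Uhrf1 and Pole2 had the lowest shCerS4 over shSCR ratios in the Caprin-1 precipitates among genes with an E2F site, and Rfc1 was the gene nearest to no change. Uhrf1 also has a promoter at chr17:56303087-56303386 with no E2F site, and the stretch shown is from the one that holds a site. Mcm6 was added after its values were seen, as a member of the helicase group with several sites. Capitals mark E2F sites on either strand, and sites that overlap form a single run of capitals. The Pole2 site lies just after the start, so a 30-base window is shown there, and the other stretches are the 250 bases before the start. Coordinates are GRCm38.p6: Cdc6 at chr11:98907901-98908150 on the plus strand, Uhrf1 at chr17:56304063-56304312 on the plus strand, Pole2 at chr12:69228162-69228191 on the minus strand, Rfc1 at chr5:65335640-65335889 on the minus strand and Mcm6 at chr1:128359706-128359955 on the minus strand.
Cdc6: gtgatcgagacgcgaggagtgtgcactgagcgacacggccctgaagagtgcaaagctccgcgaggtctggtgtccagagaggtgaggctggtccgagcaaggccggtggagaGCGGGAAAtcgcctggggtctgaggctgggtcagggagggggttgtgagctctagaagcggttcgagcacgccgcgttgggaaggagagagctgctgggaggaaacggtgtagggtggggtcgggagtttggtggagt
Uhrf1: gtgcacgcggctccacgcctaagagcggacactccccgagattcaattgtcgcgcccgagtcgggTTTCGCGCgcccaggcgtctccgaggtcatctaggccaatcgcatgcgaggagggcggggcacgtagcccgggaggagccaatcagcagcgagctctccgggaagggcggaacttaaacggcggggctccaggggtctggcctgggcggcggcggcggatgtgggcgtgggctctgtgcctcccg
Pole2: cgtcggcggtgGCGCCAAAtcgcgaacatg
Mcm6: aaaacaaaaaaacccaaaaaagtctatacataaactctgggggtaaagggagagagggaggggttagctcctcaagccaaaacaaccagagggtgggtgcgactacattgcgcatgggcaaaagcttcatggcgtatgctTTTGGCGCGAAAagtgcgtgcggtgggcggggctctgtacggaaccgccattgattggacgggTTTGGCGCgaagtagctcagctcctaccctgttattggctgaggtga
Rfc1: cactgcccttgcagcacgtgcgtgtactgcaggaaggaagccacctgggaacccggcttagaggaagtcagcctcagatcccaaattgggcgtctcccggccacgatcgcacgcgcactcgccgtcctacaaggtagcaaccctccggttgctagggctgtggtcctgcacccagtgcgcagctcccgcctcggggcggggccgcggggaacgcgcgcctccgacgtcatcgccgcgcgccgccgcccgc
The Rfc1 stretch holds no E2F site, and the counting intervals of its ratios, given with the clamp loader, included 0 in both precipitates.

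In the Caprin-1 precipitates 37 of the 50 genes were lower past 2-fold in shCerS4 cells, where 4.95% of all compared genes were, and 0 were higher, where 6.25% of all compared genes were. In the IgG precipitates 38 of 50 were lower, beside 5.34% of all compared genes, and 0 were higher, beside 5.69%. The same 37 genes were lower in both kinds of precipitate, beside 4.02% of all compared genes, Cdc7 passed with IgG only, and 12 passed in neither. Under the 3 other scalings tried Cdc7 and Rfc2 were also called with Caprin-1, with Orc6, Pold3 and Rfc3 under some of them. The median log2 ratio of the 50 genes was −1.47 with Caprin-1 and −1.53 with IgG, where the medians of all compared genes were 0.15 and 0.10. Together the 51 genes took 0.769% and 0.823% of the reads in the shSCR libraries and 0.254% and 0.300% in the shCerS4 libraries. For 46 of the 50 both shSCR values lay above both shCerS4 values, which was so for 17% of all compared genes, and the exceptions were Orc2, Cdt1, Pola1 and Rfc1.

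Mki67, a protein of dividing cells in any phase, moved with the set. It stood at 187, 92.0, 75.9 and 35.6 CPM, which gave ratios of −1.37 [−1.48, −1.26] and −1.30 [−1.39, −1.21]. All 4 libraries are precipitates, with no library of input RNA, so the ratios compare precipitated RNA and not levels in the cells. In RNA of many cells a smaller share of cells in S phase and less of these mRNAs per cell cannot be told apart. The part of the dividing fraction in these values was not tested, nor was that of recovery in the precipitates.

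**Figure D1:**
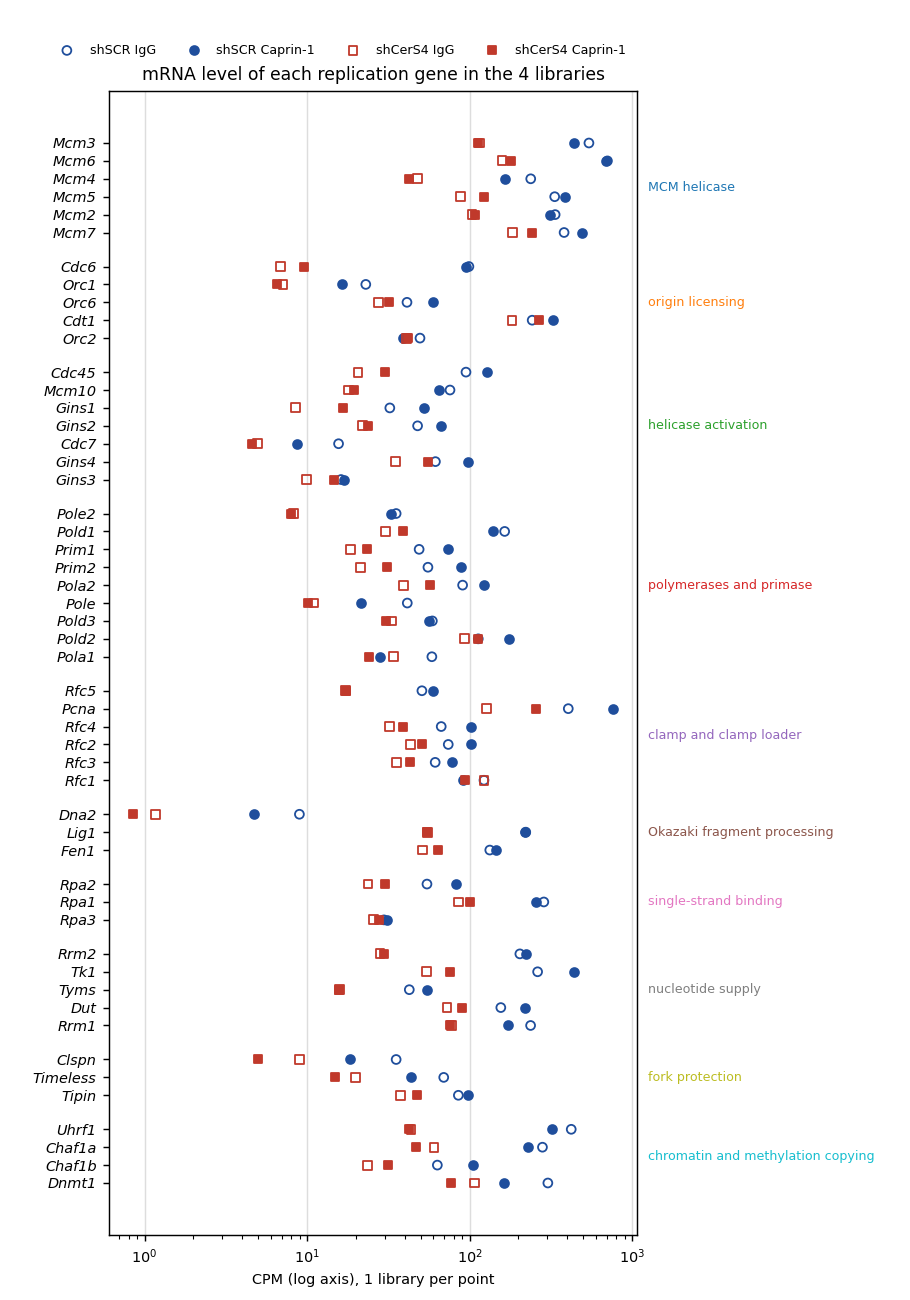
CPM of each of the 51 genes (log axis) in the 4 libraries, grouped by role and sorted by the Caprin-1 ratio within a group; circles are shSCR, squares are shCerS4, open symbols IgG and filled symbols Caprin-1, 1 library per point. In most rows both circles lie to the right of both squares, while Orc2, Cdt1, Pola1 and Rfc1 overlap.

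The MCM helicase, which unwinds DNA at the fork, was lower in all 6 subunits in both precipitates, with median log2 ratios of −1.80 and −2.04. Mcm6 stood at 706 and 696 CPM in the shSCR libraries and 159 and 179 CPM in the shCerS4 libraries, a ratio of −1.96 [−2.01, −1.91] with Caprin-1 and −2.15 [−2.21, −2.10] with IgG. Mcm3 stood at 543, 439.8, 115 and 112 CPM, ratios of −1.97 [−2.03, −1.91] and −2.23 [−2.30, −2.17]. Both shCerS4 values of each gene lay well below both shSCR values. Mcm4 had ratios of −1.95 and −2.32, Mcm5 of −1.65 and −1.93, and Mcm2 of −1.54 and −1.70. Mcm7 was the subunit with the smallest change, at 382, 491, 184 and 242 CPM and ratios of −1.02 [−1.07, −0.98] and −1.06 [−1.114, −0.999], and its transcripts, described further on, did not all move alike.

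Among the licensing factors, 2 of 5 were lower past 2-fold in each precipitate, and the group held both the lowest and the highest Caprin-1 ratio of the set. Cdc6, the ATPase that loads MCM with Cdt1, stood at 99.1 and 94.6 CPM in shSCR and 6.86 and 9.51 CPM in shCerS4 cells. Its ratios were −3.31 [−3.51, −3.12] and −3.85 [−4.12, −3.60], which is 9.92-fold and 14.4-fold lower. It ranked 16th from the lowest of all 10283 genes with Caprin-1 and 10th with IgG. Orc1, the ORC subunit whose level varies through the cell cycle, had 23.0, 16.5, 7.12 and 6.53 CPM and ratios of −1.34 [−1.61, −1.07] and −1.69 [−1.98, −1.42]. Orc2, which belongs to the core of the same complex, had 49.6, 38.7, 40.8 and 41.8 CPM, and its shCerS4 values fell within the range of its shSCR values. Its ratio was 0.11 [−0.01, 0.24] with Caprin-1, which fell below 0 under trimmed-mean and median-of-ratios scaling, and −0.28 [−0.42, −0.15] with IgG. Orc6 had ratios of −0.89 and −0.59. Cdt1, the partner of Cdc6 that is removed by protein degradation in S phase, had 243, 325, 182 and 269.6 CPM and ratios of −0.27 [−0.31, −0.22] and −0.41 [−0.48, −0.35].

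Of the 7 factors that activate the helicase, 4 were lower past 2-fold with Caprin-1 and 5 with IgG. Cdc45, the helicase cofactor, had 95.1, 129, 20.6 and 30.4 CPM and ratios of −2.08 [−2.20, −1.97] and −2.21 [−2.37, −2.05], and the cell lines did not overlap. Mcm10, which acts with it at the origin, had ratios of −1.74 and −2.07. The GINS complex, which joins MCM and Cdc45, was not uniform. Gins1 stood at 32.3, 52.6, 8.49 and 16.7 CPM with ratios of −1.66 [−1.82, −1.50] and −1.93 [−2.18, −1.68]. Gins2 stood at 47.9, 66.5, 22.0 and 23.7 CPM with ratios of −1.49 [−1.63, −1.35] and −1.12 [−1.29, −0.96]. These 2 subunits were called in both precipitates, whereas Gins3 and Gins4 were called in neither. Gins4 had 61.7, 98.4, 35.2 and 55.1 CPM and ratios of −0.84 and −0.81, and Gins3 had 16.2, 16.8, 9.91 and 14.6 CPM and ratios of −0.21 [−0.41, 0.00] and −0.71 [−0.97, −0.45]. Cdc7, the kinase that phosphorylates MCM, had 15.6, 8.70, 4.98 and 4.57 CPM, so its ratio was −1.64 [−1.99, −1.32] with IgG and −0.92 [−1.26, −0.60] with Caprin-1.

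Of the 9 subunits of the polymerases and primase, 6 were lower past 2-fold in each precipitate, with medians of −1.11 and −1.38. Pole2, the second subunit of the leading-strand polymerase epsilon, stood at 35.4, 33.0, 8.23 and 7.95 CPM, ratios of −2.05 [−2.28, −1.83] and −2.10 [−2.36, −1.85]. Pold1, the catalytic subunit of polymerase delta, stood at 165, 140.3, 30.4 and 39.0 CPM, ratios of −1.85 [−1.95, −1.75] and −2.43 [−2.56, −2.31]. Subunits of the same enzyme differed in size of change. Pold2, the accessory subunit bound to Pold1, had 113, 174, 92.7 and 113 CPM and ratios of −0.63 [−0.70, −0.56] and −0.29 [−0.38, −0.20], and Pold3 had −0.87 and −0.83. In polymerase alpha the catalytic subunit Pola1 had 58.6, 28.0, 33.9 and 24.2 CPM, with ratios of −0.21 [−0.37, −0.05] and −0.79 [−0.93, −0.65]. Its partner Pola2 had ratios of −1.11 and −1.21, and the primase subunits that make the RNA primer had −1.66 and −1.41 for Prim1 and −1.52 and −1.38 for Prim2. Pole, the catalytic subunit of polymerase epsilon, had 41.4, 21.4, 11.0 and 10.1 CPM, and its ratio was −1.91 [−2.13, −1.69] with IgG against −1.08 [−1.30, −0.86] with Caprin-1.

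The clamp Pcna was lower and its loader was divided. Pcna, the ring that tethers polymerases to DNA, stood at 405 and 764 CPM in shSCR and 128 and 258 CPM in shCerS4 cells, ratios of −1.57 [−1.61, −1.53] and −1.67 [−1.73, −1.60]. Rfc5 stood at 50.9, 59.9, 17.3 and 17.3 CPM, ratios of −1.79 [−1.95, −1.64] and −1.56 [−1.74, −1.38]. Rfc4 was also called in both, at −1.37 and −1.05. The loader subunits Rfc2 and Rfc3 fell short of the 2-fold call, at −0.99 and −0.78 for Rfc2 and −0.87 and −0.79 for Rfc3, and with Caprin-1 Rfc2 passed it under all 3 other scalings and Rfc3 under trimmed-mean scaling. Rfc1, the large subunit of the loader, stood at 123, 91.1, 123 and 93.2 CPM, so that each shCerS4 value nearly equalled the shSCR value of the same precipitate. Its ratios were 0.03 [−0.05, 0.12] and 0.00 [−0.08, 0.08], and both were below 0, from −0.11 to −0.07, under the 3 other scalings tried.

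Lagging-strand processing and single-strand binding showed both patterns. Lig1, the ligase that seals Okazaki fragments, stood at 222, 221, 55.4 and 54.7 CPM, ratios of −2.01 [−2.10, −1.93] and −2.00 [−2.10, −1.91]. Fen1, the flap nuclease, stood at 133, 146, 51.3 and 64.2 CPM, ratios of −1.19 [−1.27, −1.10] and −1.38 [−1.48, −1.27]. The nuclease-helicase Dna2 was too low to be compared, at 8.98, 4.70, 1.17 and 0.851 CPM. In RPA, the trimer that coats single-stranded DNA, Rpa1 had 287, 255, 85.5 and 101 CPM and ratios of −1.34 [−1.41, −1.28] and −1.74 [−1.82, −1.67], and Rpa2 had 54.7, 82.2, 23.7 and 30.2 CPM and ratios of −1.44 [−1.57, −1.32] and −1.20 [−1.36, −1.05]. The smallest subunit, Rpa3, differed from them, at 29.8, 31.0, 25.6 and 27.6 CPM and ratios of −0.17 [−0.31, −0.02] and −0.22 [−0.39, −0.04].

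All 5 genes of nucleotide supply were lower past 2-fold in both precipitates, with medians of −1.80 and −1.62. Rrm2, the regulated small subunit of ribonucleotide reductase, stood at 204, 223, 28.1 and 29.9 CPM, ratios of −2.90 [−3.01, −2.79] and −2.86 [−2.99, −2.73]. Rrm1, its large subunit, was lower by less, from 238 and 173 CPM to 77.1 and 76.1 CPM, ratios of −1.18 [−1.26, −1.10] and −1.62 [−1.71, −1.54]. The salvage enzyme Tk1, thymidine kinase of the cytosol, stood at 262, 441, 54.2 and 76.2 CPM, ratios of −2.53 [−2.60, −2.46] and −2.28 [−2.37, −2.18]. Tyms, which makes thymidylate, had 42.6, 54.6, 15.8 and 15.7 CPM and ratios of −1.80 [−1.97, −1.64] and −1.43 [−1.63, −1.25]. Dut, which clears dUTP, had ratios of −1.29 and −1.10. For each of the 5 both shCerS4 values lay below both shSCR values.

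The 3 fork-protection genes and the 4 genes that copy chromatin and DNA methylation were all lower past 2-fold in both precipitates. Uhrf1, which brings Dnmt1 to newly copied DNA, stood at 423, 323, 43.6 and 42.5 CPM, ratios of −2.93 [−3.02, −2.83] and −3.28 [−3.38, −3.18]. Dnmt1, the maintenance methyltransferase itself, stood at 303, 163, 107 and 77.1 CPM, ratios of −1.08 [−1.161, −1.005] and −1.50 [−1.58, −1.43]. Both genes were lower, Uhrf1 by more. Of the chromatin assembly factor subunits, Chaf1a had ratios of −2.29 and −2.22, and Chaf1b had 63.4, 105, 23.5 and 31.5 CPM and ratios of −1.73 and −1.43. Clspn, the checkpoint mediator at the fork, had 35.4, 18.5, 8.95 and 4.99 CPM and ratios of −1.89 [−2.19, −1.60] and −1.98 [−2.23, −1.74]. Timeless and Tipin form a complex that acts with it at the fork. Timeless had ratios of −1.55 and −1.80, and Tipin had 85.4, 98.5, 37.5 and 47.2 CPM and ratios of −1.06 and −1.19.

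Across the set, 8 genes were at least 4-fold lower in both precipitates: Cdc6, Uhrf1, Rrm2, Tk1, Chaf1a, Cdc45, Pole2 and Lig1. This was so for 0.603% of all compared genes. The 12 genes called in neither precipitate were Orc2, Orc6, Cdt1, Gins3, Gins4, Pola1, Pold2, Pold3, Rfc1, Rfc2, Rfc3 and Rpa3. Most of them are subunits of complexes in which another subunit was called. When only the strongest entry per gene was used, Dnmt1 and Fen1 missed the call with Caprin-1 and Tipin missed it with IgG, while Pold3 gained it with IgG. Over the 50 genes the ratios with Caprin-1 and with IgG had a Spearman correlation of 0.90, where all compared genes had 0.83. The 2 comparisons share no library but set the same cell lines against each other, so any difference between the lines enters both. With an E2F site, 12 of 17 compared genes were lower in each precipitate, with medians of −1.65 and −1.93; without one, 19 of 25 were lower with Caprin-1 and 20 with IgG, with medians of −1.44 and −1.43.

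**Figure D2:**
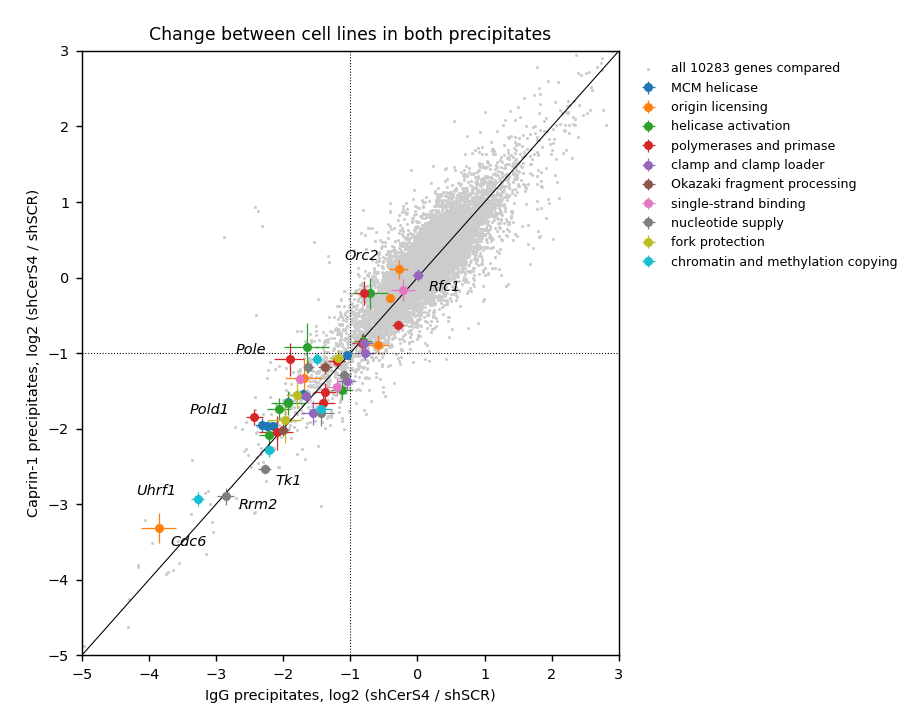
Log2 ratio of shCerS4 over shSCR for all compared genes (grey) and the 50 compared replication genes (coloured by role, bars are 95% counting intervals), IgG on the x axis and Caprin-1 on the y axis; dotted lines mark a 2-fold lower level, and genes outside the axes are not drawn. The replication genes lie along the diagonal, from Cdc6 at −3.85 and −3.31 to Rfc1 at 0.00 and 0.03.

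The lists of related genes, chosen like the set with earlier results of these data known, were set beside it. Of all compared genes 4.95% and 5.34% were lower, and 6.25% and 5.69% higher, with Caprin-1 and IgG. Of 34 other replisome and origin genes, 15 were lower in each precipitate and 0 higher, with medians of −0.61 and −0.72. They included Top2a, the topoisomerase that untangles copied DNA, at 1001, 449, 258 and 159 CPM with ratios of −1.49 and −1.96, and Dscc1, a subunit of the alternative clamp loader, at −3.49 and −3.57. The ORC subunits on this list, Orc3, Orc4 and Orc5, had Caprin-1 ratios of 0.18, 0.41 and 0.40 and IgG ratios of 0.27, 0.55 and 0.04, and none was called. Of 39 other nucleotide synthesis and salvage genes 5 (12.8%) were lower and 2 (5.13%) higher in each precipitate, with medians of 0.05 and 0.01. The lower ones included Dtymk, which phosphorylates thymidylate, at −1.42 with Caprin-1, while the mitochondrial kinase Tk2 was higher at 1.27. Of 14 histone supply and chaperone genes 6 were lower and 1 higher with Caprin-1, and 5 and 1 with IgG, with medians of −0.67 and −0.60. Of 19 E2F, RB and DREAM regulators 5 were lower with Caprin-1 and 6 with IgG, and 0 were higher in each, with medians of −0.68 and −0.43. E2f8 had ratios of −2.13 and −2.10 and Mybl2 of −1.73 and −1.89, whereas the E2F partner Tfdp1 had −0.07 and −0.10.

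**Figure D3:**
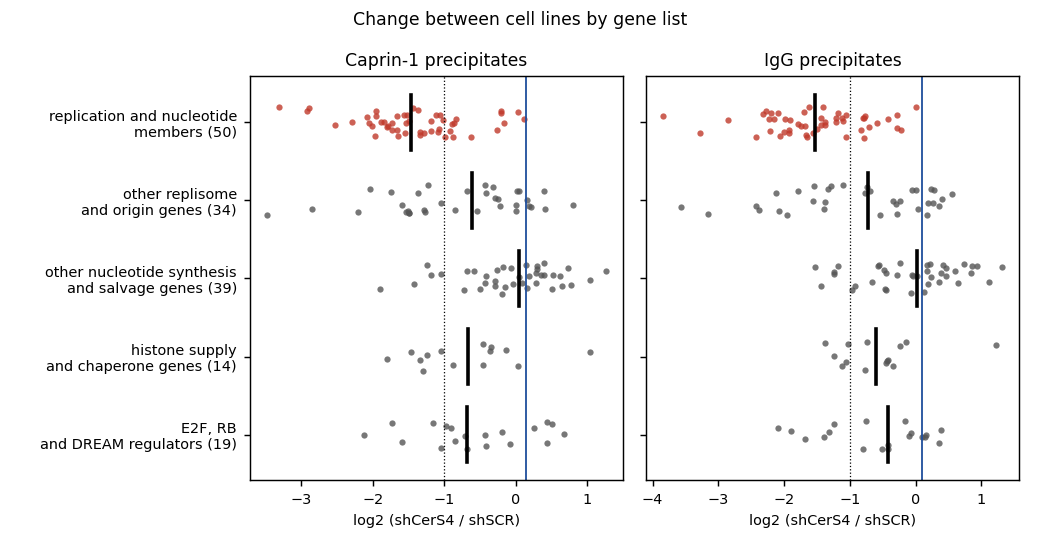
Log2 ratios of shCerS4 over shSCR per gene (points) for the replication and nucleotide supply genes and 4 related lists, in the Caprin-1 and IgG precipitates; black bars are list medians, the blue line the median of all compared genes, and the dotted line a 2-fold lower level. The set's medians of −1.47 and −1.53 lie left of those of the other lists, and other nucleotide synthesis and salvage genes centre near 0.

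Caprin-1 over IgG compares a gene's share of the Caprin-1 library with its share of the IgG library of the same line. It does not give the amount of RNA recovered, since each library is scaled to its own total. This ratio was small for most of these genes in both lines. In shSCR cells 1 of 50 was lower past 2-fold, beside 13% of all compared genes, and 0 were higher, beside 1.69%. In shCerS4 cells 0 were lower, beside 8.02%, and 1 was higher, beside 0.934%. The medians were 0.09 and 0.20, where all compared genes had −0.13 and −0.11, and 34 of 50 lay within 1.5-fold in both lines. The interval lay above 0 for 25 genes in shSCR cells (34.2% of all compared genes) and 26 in shCerS4 cells (32.6%), 21 of them in both. It lay below 0 for 18 (48.9%) and 7 (47.2%), 7 of them in both. Pcna, the gene higher in shCerS4 cells, had log2 ratios of 0.91 [0.88, 0.95] in shSCR and 1.01 [0.95, 1.08] in shCerS4 cells, so its Caprin-1 level was 764 against 405 CPM with IgG in shSCR cells and 258 against 128 CPM in shCerS4 cells. Pola1, the gene lower in shSCR cells, had −1.07 [−1.20, −0.93] and −0.48 [−0.65, −0.32], and its call was lost under each of the 3 other scalings. Clspn had −0.93 and −0.84, and Gins1 had 0.70 and 0.97.

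These ratios followed genomic span in the set as in all genes. The Spearman correlation with span was −0.52 in shSCR and −0.46 in shCerS4 cells over the 50 genes, and −0.54 and −0.48 over all compared genes with a span, points that share libraries. The 25 genes of shorter span, from 3206 to 18972 bases, had median ratios of 0.36 and 0.30, and the 25 of longer span, from 20126 to 327622 bases, had −0.22 and −0.02. Pcna spans 3895 bases, Clspn 37577 and Pola1 327622, but Prim2, at 216001 bases, had ratios of 0.68 and 0.54. The cell-line ratios were less related to span, with correlations of −0.05 for Caprin-1 and −0.18 for IgG. Any part of span in the antibody ratios was not tested.

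**Figure D4:**
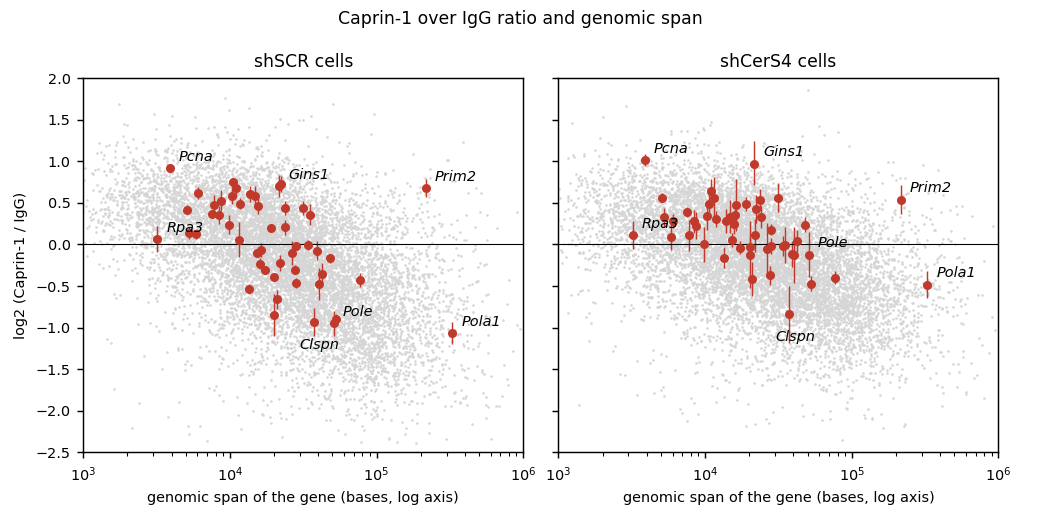
Log2 ratio of Caprin-1 over IgG against genomic span (log axis, bases) in shSCR and shCerS4 cells, with all compared genes in grey and the replication genes in red with 95% counting intervals; genes outside the axes are not drawn. Longer genes lie lower in both panels, with Prim2 above the trend and Clspn under it.

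The antibody ratio of shCerS4 cells minus that of shSCR cells passed 2-fold for 0 of 50 genes in either direction, beside 0.35% of all compared genes lower and 0.632% higher. Its median was 0.10, against 0.04 for all compared genes. The interval lay above 0 for 21 genes, beside 29.4% of all compared genes, below 0 for 11, beside 20.9%, and included 0 for 18. The highest were Pole at 0.83 [0.52, 1.13], Cdc7 at 0.72 [0.26, 1.18] and Pold1 at 0.59 [0.42, 0.75]. The lowest were Tyms at −0.37 [−0.61, −0.12], Gins2 at −0.37 [−0.58, −0.15] and Pold2 at −0.34 [−0.45, −0.23]. All 4 libraries enter this measure, and it equals the Caprin-1 ratio between lines minus the IgG ratio.

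The table repeats symbols with no transcript name, and each entry was read as 1 transcript. Of the 51 genes 23 had more than 1 entry, 64 entries together, of which 49 had a mean of at least 5 CPM. Of these 33 were lower past 2-fold with Caprin-1, 35 with IgG and 28 with both, while 1 was higher with Caprin-1 and 2 with IgG. Over the 9101 such entries of all genes with more than 1 entry, 7.2%, 10.4% and 3.81% were lower in the same order, and 11.3% and 12.8% were higher. The entry higher in both was the second of Mcm7, at 8.43, 8.63, 53.5 and 68.8 CPM, which was 2.21% and 1.76% of the gene in shSCR cells and 29.1% and 28.5% in shCerS4 cells. Its ratios were 2.99 [2.80, 3.20] and 2.66 [2.43, 2.91], while the other Mcm7 entries were lower, at −1.75 and −1.28 for the first and −1.31 and −1.74 for the third. Without the second entry, a step chosen after its values were seen, Mcm7 had ratios of −1.48 [−1.53, −1.43] and −1.52 [−1.59, −1.46], nearer to the other subunits. The other higher entry was the first of Pola2, at 1.15 with IgG and −0.32 with Caprin-1. In Uhrf1 the first entry took 20.3% and 23.1% of the gene in shSCR and 42.7% and 45.2% in shCerS4 cells, all 4 entries being lower. Reads shared by transcripts of a gene were divided by estimation, so an entry's share is less certain than the sum.

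**Figure D5:**
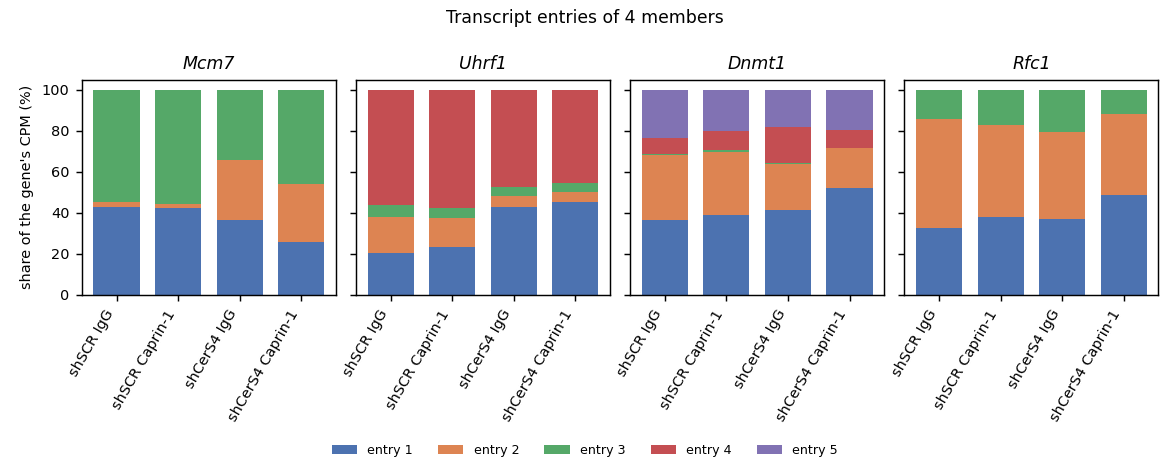
Share of each gene's CPM (percent, stacked bars, 1 library per bar) in its transcript entries for Mcm7, Uhrf1, Dnmt1 and Rfc1, chosen after their values were seen. The second Mcm7 entry makes up 29.1% and 28.5% in the shCerS4 libraries and 2.21% and 1.76% in the shSCR libraries.

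Other genes lie over some of these loci, and no source used here gives the strand of the reads, so reads of overlapping genes may not be separable. Of the 51 genes 22 overlap another gene of the reference and 10 overlap a gene measured here, among them Mcm7 with Ap4m1, Tk1 with Afmid and Chaf1a with Ubxn6. Ap4m1, Afmid and Ubxn6 had Caprin-1 ratios of −0.17, −0.63 and 0.06 and IgG ratios of 0.24, −0.17 and 0.00. Over all the measured neighbours the ratios ran from −0.63 to 0.49 with Caprin-1 and from −0.40 to 0.57 with IgG. Of the 28 compared genes that overlap none, 18 were lower with Caprin-1 and 19 with IgG, beside 4.95% and 5.34% of all compared genes.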

How the data were processed

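RNA immunoprecipitates of 4T1 cells were sequenced, 1 library per group. Reads were aligned with STAR in Partek to mm10, per the submitters' processing notes, and no versions were given. The authors deposited CPM per transcript entry, each with 0.0001 added, which was subtracted here. The design assumed counts, and the file's values were CPM, so reads were estimated from the spacing of values: 81.3%, 79.7%, 81.2% and 80.1% of gene values under 40 CPM lay within 0.05 reads of a whole number. Entries were summed per symbol. Log2 ratios used library totals with 0.5 reads added. Ratios between a pair of libraries had exact 95% counting intervals, and the difference of antibody ratios had a normal approximation. Both kinds cover counting error only, and treat reads as independent. Reads after amplification are not independent molecules, so the intervals may be too narrow even for that error. A total of 3 reads equals 0.151, 0.111, 0.152 and 0.122 CPM. Python 3.11.15 with scipy 1.17.1 was used. On data simulated for 10283 genes with counting error alone, 95.5% of intervals for Caprin-1 between cell lines covered the simulated ratio. The intervals assume that same error, so this checks their calculation and not the spread between real libraries.

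The genes and lists were chosen with earlier results of these data known. In full were named, per role group, the lowest, highest and most abundant gene, and the 3 lowest and 3 highest of each of 5 comparisons. Alternatives were 3 other scalings, other filters, 5 reads added, the most abundant transcript alone and a 1.5-fold call. The closing section gives their effect. Protein sequences were not used here. A gene that the naming rule takes from a related list is not reported here.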

Additional observations from a re-analysis of the deposited data

Results flagged for a closer look

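The Caprin-1 over IgG ratio of Pold1 lay on opposite sides of 0 in the cell lines, at −0.23 [−0.30, −0.16] in shSCR and 0.36 [0.21, 0.51] in shCerS4 cells. That of Rpa1 also did, at −0.17 [−0.22, −0.12] in shSCR and 0.23 [0.14, 0.32] in shCerS4 cells. With 1 library per group these differences were not tested, and the intervals cover counting error only. Both rest on scaling to library totals. Under the 3 other scalings the shSCR ratio of Pold1 lay between −0.06 and −0.03 and that of Rpa1 between 0.01 and 0.03, with intervals that included 0, and Mcm3, Orc2 and Rrm1 were then the genes with intervals on opposite sides of 0.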

How the results depend on the processing

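No paired analysis was possible because there was 1 library per group. When libraries were scaled by trimmed mean, by median of ratios or by upper quartile, the genes lower in shCerS4 cells with Caprin-1 numbered 42, 41 and 39, and 38 with IgG in each. All 37 and 38 genes called with library totals were among them, and the ratio of Rfc1 with Caprin-1 was no longer above 0 under any of the 3, nor that of Orc2 under the first 2. The median with Caprin-1 was −1.61 with trimmed-mean and −1.59 with median-of-ratios scaling. These scalings moved the median of all compared genes with Caprin-1 from 0.15 to 0.00, 0.02 and 0.04, and trimmed-mean scaling moved all higher and lower calls from 643 and 509 to 442 and 639 with Caprin-1, from 585 and 549 to 475 and 620 with IgG, from 174 and 1337 to 499 and 851 for Caprin-1 over IgG in shSCR cells, and from 96 and 825 to 217 and 567 in shCerS4 cells. For Caprin-1 over IgG in shSCR cells the 3 scalings gave 0 genes lower and 1 higher, with medians of 0.29, 0.27 and 0.27, so the Pola1 call was lost. Of all compared genes 8.28%, 8.93% and 8.85% were lower, and 4.85%, 4.36% and 4.48% higher. In shCerS4 cells they gave 2 genes higher, beside 2.11%, 2.23% and 2.36% of all compared genes, with a median of 0.35 under upper-quartile scaling. With the most abundant transcript alone, 2 genes were lower over IgG in shSCR cells, beside 14.1% of all genes compared that way. In the difference of ratios 1 was higher, beside 2.77%. Dnmt1 and Fen1 then missed the call with Caprin-1, and Tipin with IgG. A 1.5-fold call gave 6 lower and 10 higher over IgG in shSCR cells (27.5% and 11.4% of all compared genes), 1 lower and 3 higher in shCerS4 cells (22.6% and 8.69%), and 3 higher in the difference (4.24%). Among the 28 genes that overlap no other, a choice made after seeing the data, 18 were lower with Caprin-1, 19 with IgG and 0 over IgG in shSCR cells, with fewer genes counted. Of all compared genes 4.95%, 5.34% and 13% were lower in the same order. Of 1600 values of named genes under alternatives, 1339 moved by less than their counting interval, 261 by more, and 0 called values changed sign. The filters, the 1.5-fold call and the choice of genes without overlaps leave a gene's ratio as it was. Values under those settings could not move, so the 1339 include values that were fixed in advance. With a filter at 1 CPM or none, Dna2 entered, at 21.0 to 178 estimated reads, and 38 and 39 of 51 genes were lower with Caprin-1 and IgG. With a filter at 20 CPM 35 of 46 were lower in each, and 5 added reads gave 37 and 38 of 50. Depth left wide intervals for Cdc7 and Clspn.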
